A study of Mus musculus with 18 samples.

Results

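The transcriptomes of mouse pancreatic tumour line 1151, in the libraries labelled MCU re-expressing, were set against those of line 2838 with wild-type Mcu. The comparison used 9 of the 18 libraries of the series, 3 of its 6 groups with 3 libraries in each. They were chosen by their labels as the Mcu-expressing cells of each line, and 1151 was compared separately with each of the 2 clones of 2838. The lines came from pancreatic tumours of KPCY mice, whose alleles include Trp53 LSL-R172H/+, Pdx1-Cre and R26LSL-Yfp, with or without a floxed Mcu gene. Pdx1-Cre recombines in pancreatic progenitors, so mutant p53 and the yellow fluorescent reporter are shared by all groups. The 1151 cells had lost Mcu through Cre and were labelled as re-expressing it. Their isogenic pair carries an empty vector, and both were kept under 2 μg/mL puromycin. The 2838 cells are labelled Mcu wild type with an empty vector and come from clones 15 and 22, each a single clone. All cells were untreated cultures in DMEM with 10% serum, and polyA RNA was sequenced. The 1151 libraries are batch 1 and the 2838 libraries batch 2 in the labels, so line and batch cannot be told apart. Nothing in the labels tells whether the 3 libraries of a group are separate cultures, and p-values therefore measure only the spread between these libraries, which may be technical.

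Pancreatic ductal adenocarcinoma cells are known to occupy a range of states. Cells of the classical state keep an epithelial programme with gastric and intestinal features, such as trefoil factors, mucins and the transcription factors of foregut origin, while other states lose it and gain mesenchymal or squamous genes. Tumour cells also shape the tissue around them through secreted chemokines that recruit neutrophils and monocytes, complement proteins and extracellular matrix. The mitochondrial calcium uniporter, with Mcu as its pore, lets calcium into the mitochondrial matrix.

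Expression was given as TPM (a value per transcript length, scaled to the same total in each library), so read depth was unknown. Between 10760 and 11507 genes reached 1 TPM per library. Replicate 3 of clone 22 stood apart, with the lowest number of genes, an upper quartile of 3.73 TPM against 6.43 to 7.85 in the other 8 libraries, and 4.59% of TPM from mitochondrially encoded genes against 7.69% to 12.8%. Pearson's r over log2(TPM + 1), across genes within pairs of libraries, ran from 0.940 to 0.991 within groups, from 0.929 to 0.983 between the 2838 clones and from 0.862 to 0.880 between the lines. Genes are not independent replicates, and these r values describe the libraries only.

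Mcu (chromosome 10, 59446984 to 59616692, mm10) was read first as a check of the labels. Mcu was at 14.4, 15.2 and 13.1 TPM in the 1151 libraries, 68.4, 81.2 and 76 TPM in clone 15 and 94.4, 96.3 and 59.3 TPM in clone 22. Its 1151 empty-vector pair was at 16.6, 15.1 and 13.3 TPM, so the libraries labelled MCU re-expressing overlapped their knockout pair and had a mean 0.758 TPM lower. That difference gave a two-sided exact permutation p = 0.5, where 0.1 is the smallest that 3 against 3 libraries allow. The Mcu transcript thus did not bear out the label. Whether a re-expressed copy would be counted as mouse Mcu is not given in the sources used here. Knockout clone 17 of 2838 was at 120, 122 and 113 TPM, above every wild-type library. Knockout clone 42 was at 12.3, 10.5 and 11.5 TPM. Mcu TPM therefore did not follow the Mcu labels throughout this series and cannot decide whether they are right. Mcu itself was lower in 1151 than in the 2838 clones, with a log2 difference of -2.32 ± 0.19 (SE) against clone 15 and -2.43 ± 0.19 against clone 22 (limma, adjusted p = 2.7e-05 and 1.9e-05). The groups below are therefore named by line, and 1151 stands for the libraries labelled MCU re-expressing. The dominant-negative paralogue Mcub was at 11.2 to 13.4 TPM in 1151, 20.1 to 31.5 TPM in clone 15 and 38 to 42.6 TPM in clone 22. Mcub was lower (log2 difference of -0.98 against clone 15 and -1.64 against clone 22, limma, adjusted p = 0.0034 and 0.00018), short of a 4-fold change.

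A gene was called large where its log2(TPM + 1) differed by 2 or more, a 4-fold change on that scale, with an adjusted p under 0.05 (limma, Benjamini-Hochberg) and one sign against both clones. Log2 differences below are 1151 minus 2838, and where 2 are given the first is against clone 15 and the second against clone 22. Of 11278 autosomal or mitochondrial genes tested, 148 were higher in 1151 (1.31%) and 259 lower (2.3%). In every one of them the 1151 libraries overlapped no 2838 library, which the size and adjusted p asked for nearly require. It is thus no separate support, and the share over all genes is not given here. With no minimum size, 1395 genes were higher (12.4%) and 2263 lower (20.1%) against clone 15, and 1515 higher (13.4%) and 1897 lower (16.8%) against clone 22. Calls in both contrasts had one sign for 2702 genes and opposite signs for 7. Both contrasts share the 1151 libraries. Between the clones, clone 22 was higher for 26 genes (0.231%) and lower for 98 (0.869%), and 9 of these differed by 2 or more. The median absolute log2 difference over all genes was 0.45 against clone 15, 0.43 against clone 22 and 0.25 between the clones. The signed median over all genes was -0.15 against clone 15 and 0.01 against clone 22, and the medians of gene lists below are read beside it. Without replicate 3 of clone 22, 146 genes were large and higher and 291 large and lower, but the calls with no minimum size grew to 2475 higher and 4416 lower against clone 15, 2051 and 4462 against clone 22, and 279 and 221 between the clones. Under median-of-ratios scaling the calls against clone 15 became 2134 higher and 2191 lower, so the balance of directions among small differences depended on scaling. A further fit used the 6 group means as units, with 1 unit for 1151. Its error came from the spread within each pair of 2838 clones, wild-type and knockout. The knockout clones lie outside this comparison, and Mcu averaged 119 and 11.4 TPM in them beside 75.2 and 83.3 TPM in the wild-type clones. For Tff2 the wild-type clones differed too, at 118 and 32.5 TPM. A gene that did not pass need not vary between the wild-type clones. With the 6 group means as units and the spread between clones as error, 141 genes were large and higher and 205 large and lower, and Mcu, Tff2, Mest, Wnt7b, Mucl3, Gdf15, Col6a1, Col6a2, Fn1, Cxcl2, Lcn2, C3 and Trf among the large genes named here did not pass, nor did the smaller differences of Krt8 and Snai2.

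Both lines carried abundant keratin transcripts of simple epithelium, and the tumour suppressor gene Trp53 differed by little. Trp53 was at 165 to 172 TPM in 1151, 181 to 198 TPM in clone 15 and 169 to 219.7 TPM in clone 22, and did not pass the test (-0.17 and -0.25, limma, adjusted p = 0.31 and 0.16). Without replicate 3 of clone 22, it passed against both clones (-0.17 and -0.36, adjusted p = 0.035 and 0.0019, limma). Krt18 was at 1799 to 1878 TPM in 1151 and 1610.1 to 2471 TPM in 2838, and Krt19 at 795 to 866 and 729.8 to 1201 TPM, with overlapping ranges. The log2 differences were 0.08 and -0.22 for Krt18 and 0.14 and -0.17 for Krt19. Their partner Krt8 was higher in 1151 (0.76 and 0.55, limma, adjusted p = 0.0004 and 0.0027), a call lost on group means (0.65, adjusted p = 0.230, limma) and, against clone 22, under median-of-ratios scaling (adjusted p = 0.086, limma). The junction cadherin Cdh1 was at 235, 233 and 221 TPM in 1151, 383, 343 and 397 TPM in clone 15 and 576, 535 and 224 TPM in clone 22, a difference that did not pass (-0.70 and -0.83, adjusted p = 0.12 and 0.071, limma). It passed without replicate 3 of clone 22 (-0.70 and -1.27, adjusted p = 9.4e-05 and 7.9e-06, limma). Epcam, an epithelial adhesion molecule that defines carcinoma cells in many tissues, was under 1 TPM in all 9 libraries, at 0.575 to 0.699, 0.163 to 0.424 and 0 to 0.184 TPM, and so was not tested. Vim, the mesenchymal intermediate filament, was at 1698 to 1924 TPM in 1151 and 1638 to 2342 TPM in 2838, and did not pass (0.07 and -0.21), but was called against clone 22 without its replicate 3 (-0.28, adjusted p = 0.042, limma). The keratins of simple epithelium stood beside abundant Vim in both lines, with Epcam near 0.

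**Figure D1:**
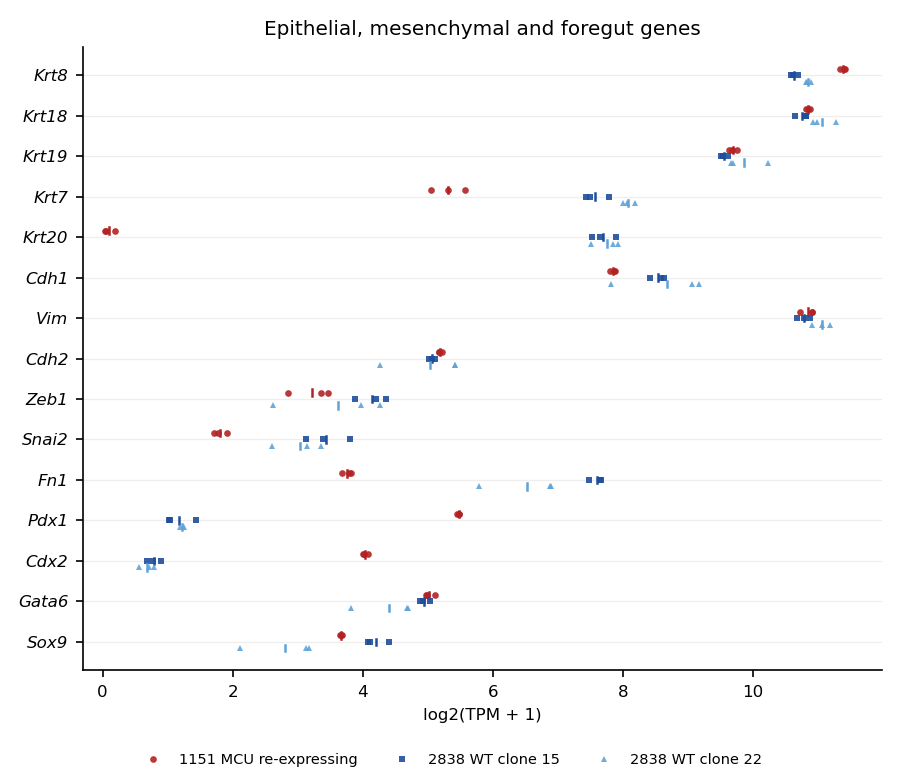
Levels of epithelial, mesenchymal and foregut genes in each of the 9 libraries, as log2(TPM + 1), with 1 point per library and a bar at each group mean, coloured by group. Krt8, Krt18, Krt19 and Vim lie close together in both lines, while Pdx1 separates 1151 from both clones.

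Many secretory genes of stomach and intestine were higher in 1151. Of 12 measured members of that list, 6 were large and higher and 1 large and lower, against 1.31% and 2.3% of all genes, with list medians of 2.37 and 2.11. The other 17 of its 29 members were not tested. The list was chosen with earlier results of these data known, so these shares are a description only. The 3 trefoil factors, small secreted peptides that protect mucosal surfaces, were among the 6 that were higher. Tff1 was at 4356, 4111 and 4318 TPM in the 1151 libraries, 155, 181 and 246 TPM in clone 15 and 212, 199.9 and 326 TPM in clone 22. Every 1151 library was above every 2838 library. The log2 difference was 4.48 ± 0.22 (SE) against clone 15 and 4.14 ± 0.22 against clone 22 (limma, adjusted p = 7.6e-07 and 1.3e-06). Tff2 was at 515, 539 and 485 TPM in the 1151 libraries, 134, 105 and 115 TPM in clone 15 and 23.7, 26.9 and 46.8 TPM in clone 22. All 1151 libraries were above clone 15, and clone 15 in turn above clone 22. Its difference was 2.12 ± 0.23 (SE) against clone 15 and 4.0 ± 0.23 against clone 22 (limma, adjusted p = 0.00014 and 2.3e-06), and the clones also differed from each other by -1.88 (limma, adjusted p = 0.0099). Tff3 was at 263, 265 and 205 TPM in the 1151 libraries, 1.13, 2.57 and 3.18 TPM in clone 15 and 0.45, 1.12 and 0.93 TPM in clone 22. All 6 libraries of 2838 stood far below 1151, a difference of 6.26 ± 0.28 (SE) against clone 15 and 7.07 ± 0.28 against clone 22 (limma, adjusted p = 5.1e-07 and 2.2e-07). Tff1, Tff2 and Tff3 are neighbours on chromosome 17, from 31125306 to 31165277 (mm10), a span of 39.972 kb.

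Further secretory genes were higher beside the trefoil factors. Spink4, a protease inhibitor of goblet cells, was at 85.5, 90.6 and 78 TPM in 1151 and was listed at 0 in 5 of the 6 libraries of 2838, the other standing at 1.01 TPM (limma, adjusted p = 4.9e-07 and 3.1e-07). Muc5ac, the gel-forming mucin of gastric surface cells, was at 23.5, 19.4 and 21.3 TPM in 1151 and 0 to 0.333 TPM in 2838, with log2 differences of 4.15 and 4.34 (limma, adjusted p = 1.7e-07 and 1.2e-07). The galectin Lgals4, abundant in gut epithelium, was at 415, 373 and 375 TPM in 1151, 32.3 to 47.8 TPM in clone 15 and 52.9 to 80.3 TPM in clone 22. It differed by 3.34 ± 0.20 (SE) against clone 15 and 2.62 ± 0.20 against clone 22 (limma, adjusted p = 3e-06 and 1.3e-05). The mucin-like gene Mucl3 went the other way, at 2.14 to 3.24 TPM in 1151, 18.7 to 26.9 TPM in clone 15 and 19.3 to 36.8 TPM in clone 22 (-2.67 and -2.96, limma, adjusted p = 7.4e-05 and 3.6e-05). Rbp2, the intestinal cellular retinol-binding protein, was at 193, 197 and 188 TPM in 1151 against 5.58 to 7.54 in clone 15 and 2.64 to 4.26 in clone 22. Its difference was 4.64 ± 0.19 (SE) against clone 15 and 5.52 ± 0.19 against clone 22 (limma, adjusted p = 2.7e-07 and 9.8e-08). Of the 17 measured genes of the classical pancreatic cancer subtype, 5 were large and higher and none large and lower, with medians of 0.28 and 0.63. Those 5 were the 3 trefoil factors, Lgals4 and Spink4, of which all but Lgals4 are also on the secretory list. Other members of the classical list did not reach a large difference, among them the surface antigen Psca, which was called against clone 15 only (2.62 and 0.84, limma, adjusted p = 0.00053 and 0.1). The cell-surface mucin Muc1 stood lower in 1151 (-1.79 and -2.28, limma, adjusted p = 1.3e-05 and 2.8e-06).

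The empty-vector pair of the same line did not share all of these levels. Tff1 averaged 0.411 ± 0.356 TPM (SD, n = 3) there, Spink4 1.96 ± 1.4 TPM and Rbp2 4.95 ± 0.78 TPM, and Tff2 and Tff3 were listed at 0 in its 3 libraries. For these 5 genes, the empty-vector libraries of the 1151 line lay near or below the 2838 clones. So did Muc5ac at 0.293 ± 0.0572 TPM, and Lgals4 at 71.6 ± 1.99 TPM was near clone 22. Pdx1 at 22.1 ± 1.34 TPM, Cdx2 at 21.2 ± 0.494 TPM and Il1rn at 171 ± 45.4 TPM were above both 2838 clones in the empty-vector pair too.

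**Figure D2:**
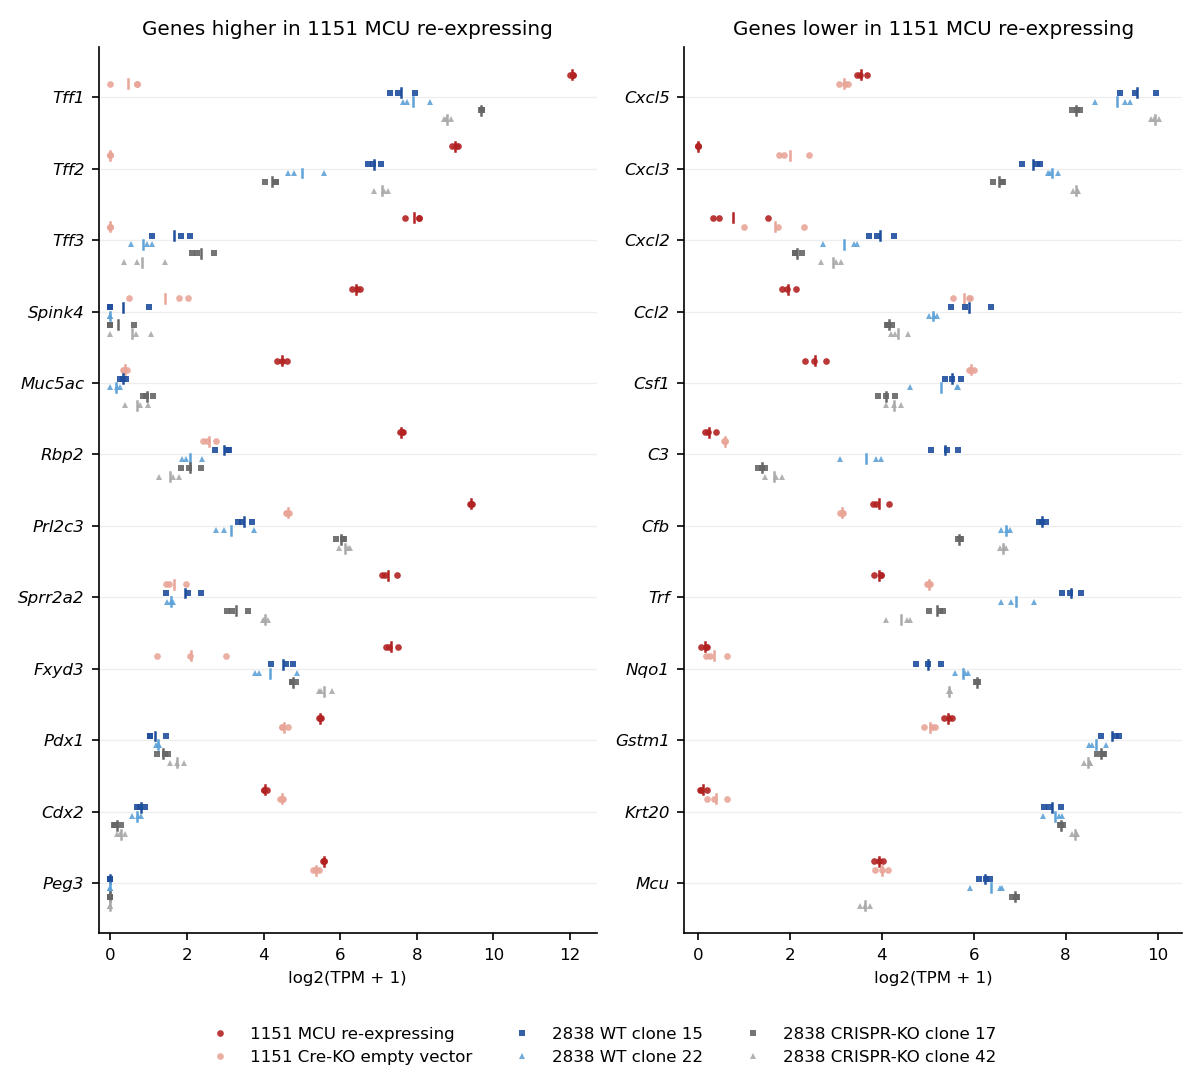
Levels of 24 large-difference genes in all 18 libraries as log2(TPM + 1), with 1 point per library and a bar at the mean of each of the 6 groups. The trefoil factors are high in the 1151 libraries labelled MCU re-expressing and near 0 in their empty-vector pair, while Pdx1, Cdx2 and Peg3 are high in both 1151 groups.

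Of 16 measured transcription factors of foregut and pancreas, 2 were large and higher and none large and lower, with medians of -0.42 and 0.01. Pdx1 (chromosome 5, 147269959 to 147275848), the factor of early pancreas and duodenum, was at 43.8, 43.8 and 42.8 TPM in 1151, 1.06, 1.03 and 1.72 TPM in clone 15 and 1.29, 1.36 and 1.39 TPM in clone 22. The 1151 libraries lay far above all 6 libraries of 2838, a difference of 4.31 ± 0.17 (SE) against clone 15 and 4.25 ± 0.17 against clone 22 (limma, adjusted p = 2.5e-07 and 2.4e-07). Cdx2 (chromosome 5, 147300805 to 147307270), the intestinal homeobox factor, lies on the same chromosome and was at 16, 15.1 and 15.2 TPM in 1151 and 0.471 to 0.867 TPM in 2838. Its difference was 3.25 ± 0.15 (SE) against clone 15 and 3.35 ± 0.15 against clone 22 (limma, adjusted p = 6.2e-07 and 4.6e-07). Other endodermal factors differed less. Gata6, a factor of the classical state, differed by 0.08 and 0.63 and the ductal and progenitor factor Sox9 by -0.54 and 0.86. Hnf4a, Foxa2 and Klf5, factors of gut epithelium, were at log2 differences of -0.50 and 0.00, -0.07 and 0.09 and -0.13 and 0.03. None of these 5 was called against clone 15, and against clone 22 Sox9 alone was (limma, adjusted p = 0.045). Without replicate 3 of clone 22, Gata6 was called against clone 22 (0.34, adjusted p = 0.0088, limma), and Sox9 against both clones with opposite signs (-0.54 and 0.52, adjusted p = 0.0025 and 0.0057, limma). None of the 29 Hox genes reached the level for testing, and their summed level was at most 0.567 TPM in any library.

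Among other genes higher in 1151, Prl2c3, a proliferin of the prolactin family, was at 665, 689.7 and 679 TPM against 5.81 to 12.5 TPM in 2838 (5.92 and 6.25, limma, adjusted p = 2.8e-07 and 2e-07). It has close paralogues, so its level is uncertain. Sprr2a2, a small proline-rich protein of barrier epithelia with a near-identical copy, was at 143, 177 and 136 TPM against 1.75 to 4.14 TPM. For both genes the 1151 libraries lay above every 2838 library, while the empty-vector pair averaged 23.7 ± 0.67 TPM for Prl2c3 and 2.19 ± 0.645 TPM for Sprr2a2 (SD, n = 3). Ildr2, an immunoglobulin-like membrane receptor, was at 28.4, 28.7 and 28.3 TPM in 1151 and 0 to 0.0363 TPM in 2838. Ly6e, a GPI-anchored surface protein, was at 234, 223 and 212 TPM in 1151 and listed at 0 in the 6 libraries of 2838, as was the cyclophilin Ppic at 29.7, 28.5 and 28 TPM. In all, 21 genes averaging 10 TPM or more in 1151 were listed at 0 in those 6 libraries, and 19 of them in all 12 libraries of 2838. They included pseudogenes as well as Peg3, the calcium channel subunit Cacna2d1, the protocadherin Pcdh7, the ciliary genes Evc and Evc2 and the homeobox gene Irx2. Irx2 averaged 24.1 TPM in 1151 but 1.11 ± 0.54 TPM (SD, n = 3) in the empty-vector pair. Peg3, Cacna2d1, Pcdh7, Evc and Evc2 averaged 7.11 to 40.5 TPM in that pair. Of the 15 genes ranked highest by the smaller of their 2 differences, 7 were processed pseudogenes of abundant genes, whose reads cannot be separated with certainty from the parent gene. Rps12l1, Rps13-ps2, Rps6-ps4, Pgam1-ps2 and Ptges3-ps were listed at 0 in all 6 libraries of 2838. In the empty-vector pair of 1151, Rps12l1 was at 0, 1546 and 3699 TPM, Rps6-ps4 at 0, 0 and 212 TPM and Pgam1-ps2 at 0, 0 and 362 TPM. A level of 0 for these 3 thus also occurred within line 1151, while Rps13-ps2 and Ptges3-ps were above 0 there. Rpl15-ps3 and Dynlt1-ps1 were listed at 0 in 4 of the 6 libraries of 2838 and reached 192 and 35.7 TPM in replicate 2 of clone 15. The calls of these last genes were lost on leaving out any 1 library of 1151, replicate 1 or 3 of clone 15, or replicate 1 of clone 22 (limma, adjusted p of 0.053 to 0.077 for Rpl15-ps3 and 0.054 to 0.078 for Dynlt1-ps1).

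Imprinted genes, expressed from one parental copy, held 3 large and higher members of 7 measured, with medians of 1.36 and 1.13. Peg3, a paternally expressed zinc-finger gene, was at 46.3, 47.1 and 46.6 TPM in 1151 and listed at 0 in every 2838 library. Mest, a paternally expressed hydrolase, was at 37.1, 38.9 and 37.1 TPM in 1151, 3.48, 2.59 and 3.12 TPM in clone 15 and 4.6, 5.32 and 1.98 TPM in clone 22, with no overlap (3.26 and 3.03, limma, adjusted p = 2.8e-05 and 4.5e-05). In the empty-vector pair Mest was at 2.57, 3.63 and 2.07 TPM, in the range of the 2838 libraries, while Peg3 (42.9, 40.5 and 38.2 TPM) was high there too. Snrpn, a splicing protein of an imprinted domain, was at 5.11, 6.15 and 7.34 TPM in 1151 and listed at 0 in all 6 libraries of 2838.

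**Figure D3:**
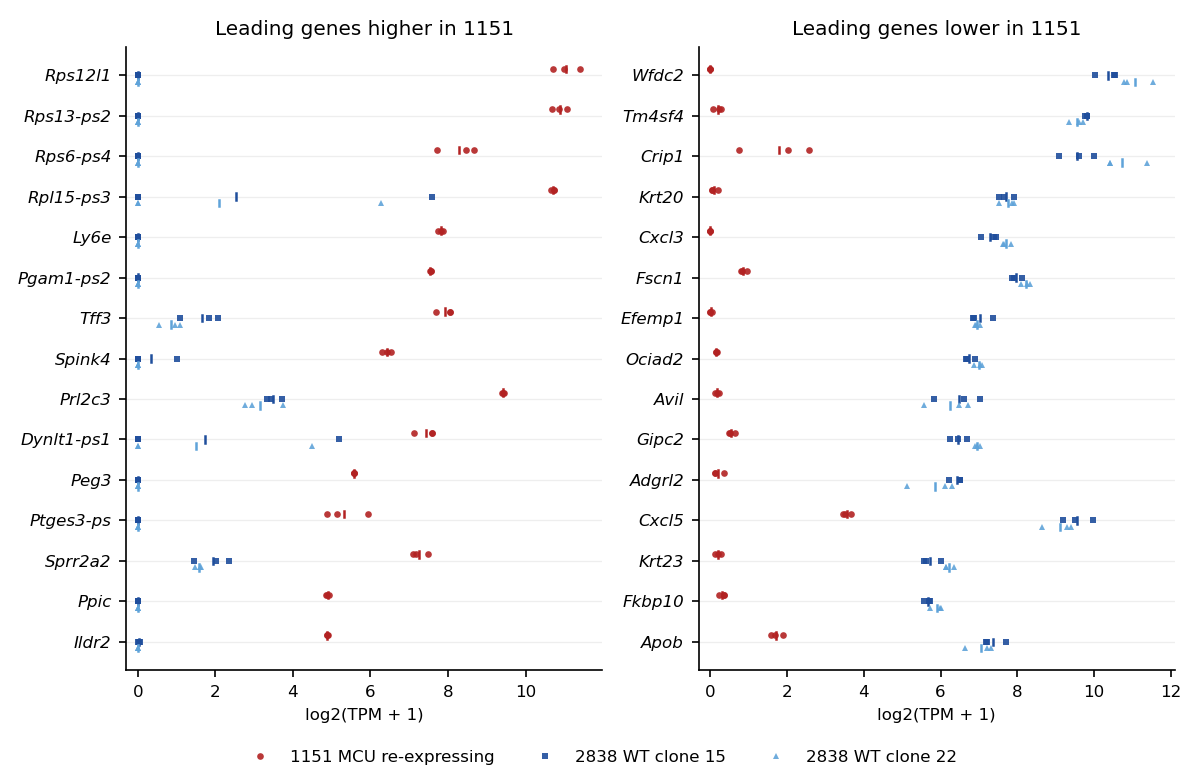
The 15 genes higher and the 15 lower in 1151 ranked highest by the smaller of their 2 differences, as log2(TPM + 1) with 1 point per library and a bar at each group mean. In each gene the 3 points of 1151 lie apart from the 6 points of 2838, as the choice of genes required.

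Among genes lower in 1151, Wfdc2 (chromosome 2, 164562413 to 164568510), a secreted whey acidic protein-type protein of epithelia, was listed at 0 in the 3 libraries of 1151. It was at 1032, 1460.2 and 1499 TPM in clone 15 and 1849, 1758 and 2942 TPM in clone 22 (limma, adjusted p = 4.8e-09 and 2.9e-09). Tm4sf4 (chromosome 3, 57425314 to 57441677), a tetraspan membrane protein, was at 0.0483 to 0.223 TPM in 1151, 904, 867 and 904 TPM in clone 15 and 776, 843 and 651 TPM in clone 22. The groups were far apart, with a difference of -9.61 ± 0.13 (SE) against clone 15 and -9.36 ± 0.13 against clone 22 (limma, adjusted p = 7.2e-10 and 7.2e-10). In the empty-vector pair Tm4sf4 averaged 289 ± 18.9 TPM (SD, n = 3), far above the libraries labelled MCU re-expressing. Crip1, a small LIM-domain protein, was at 0.683 to 4.99 TPM in 1151 and 539.6 to 2656 TPM in 2838 (-7.78 and -8.95), and averaged 517 ± 192 TPM in the empty-vector pair. Fscn1, the actin-bundling protein fascin, was at 0.733 to 0.948 TPM in 1151 and 232 to 322 TPM in 2838 (-7.10 and -7.36). The actin regulator Avil was at 0.092 to 0.176 and 46.4 to 129 TPM, and the adhesion receptor Adgrl2 at 0.0831 to 0.291 and 33.7 to 90.5 TPM. In each of these the 1151 libraries lay below every 2838 library. Ociad2 (-6.59 and -6.83), the PDZ protein Gipc2 (-5.91 and -6.40) and the collagen-folding isomerase Fkbp10 (-5.35 and -5.60) were lower too. Apob, the structural protein of lipoproteins, was at 1.98 to 2.71 TPM in 1151 and 99.3 to 206 TPM in 2838 (-5.65 and -5.34). Besides Wfdc2, 5 genes averaging 10 TPM or more in both 2838 clones were listed at 0 in the 3 libraries of 1151, namely Cxcl3, Slc16a13, Serinc2, Hsf4 and Repin1. None of these 6 was at 0 in all 6 libraries of the 1151 line.

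Of 23 measured genes of epithelial adhesion and keratins, 2 were large and lower and none large and higher, with medians of -0.26 and -0.22. Krt20 (chromosome 11, 99428403 to 99438150), a keratin of gut epithelium, was at 0.0317, 0.037 and 0.146 TPM in 1151, 184, 199 and 238 TPM in clone 15 and 242, 231 and 181 TPM in clone 22. The difference was -7.59 ± 0.16 (SE) against clone 15 and -7.67 ± 0.16 against clone 22 (limma, adjusted p = 5e-09 and 4.6e-09). Krt20 was thus near 0 in the libraries in which Tff1, Muc5ac and Cdx2 were high. Krt7, a ductal keratin, was at 46.7, 32.1 and 38.6 TPM in 1151, 172, 180.2 and 219 TPM in clone 15 and 291, 266 and 255 TPM in clone 22, with no overlap (-2.26 and -2.77, limma, adjusted p = 8.2e-06 and 2.3e-06). It averaged 237 ± 62.2 TPM (SD, n = 3) in the empty-vector pair, in the range of 2838. Krt23, another keratin of simple epithelia and a leading gene though no member of the list, was at 0.0925 to 0.203 TPM in 1151 and 46.7 to 81 TPM in 2838.

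Several chemokines and cytokines were lower in 1151. Of 19 measured, 7 were large and lower and 1 large and higher, against 2.3% and 1.31% of all genes, and the medians were -1.28 and -0.73. This list too was chosen with earlier results known, so its shares are a description only. The 7 were Cxcl2, Cxcl3, Cxcl5, Cxcl16, Ccl2, Csf1 and Lcn2. Promoter sequence is shown for 4 large members, because a kappaB-like motif, of the kind bound by NF-kappaB, was searched as GGGNNTTTCC on both strands. Each run gives the 160 bases before the RefSeq start (GRCm38.p6), 5′ to 3′ on the gene's strand, with matches in capitals. They lie at chr5:90785941-90786100 on the plus strand, chr5:90903739-90903898 plus, chr3:107760470-107760629 minus and chr2:24345211-24345370 plus.
Cxcl3: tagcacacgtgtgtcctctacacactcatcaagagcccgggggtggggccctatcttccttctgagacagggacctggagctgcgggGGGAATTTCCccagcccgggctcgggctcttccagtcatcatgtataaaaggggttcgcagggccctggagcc
Cxcl2: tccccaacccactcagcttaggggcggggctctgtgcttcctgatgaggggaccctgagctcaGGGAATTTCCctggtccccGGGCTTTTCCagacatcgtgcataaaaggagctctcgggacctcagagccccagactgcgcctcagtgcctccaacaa
Csf1: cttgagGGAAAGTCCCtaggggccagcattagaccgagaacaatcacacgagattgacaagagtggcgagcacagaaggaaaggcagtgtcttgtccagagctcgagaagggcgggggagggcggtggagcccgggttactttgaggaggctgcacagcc
Il1rn: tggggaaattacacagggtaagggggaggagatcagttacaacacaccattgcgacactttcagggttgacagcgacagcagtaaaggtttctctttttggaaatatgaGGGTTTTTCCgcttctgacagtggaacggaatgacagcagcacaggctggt
The match began 73 bases before the start in Cxcl3, 97 and 78 in Cxcl2, 154 in Csf1, on the other strand, and 51 in Il1rn, in 1 of its 3 entries. Of the 8 large members, 5 have an entry in the RefSeq promoter table, and 4 of these held a match, the exception being Lcn2. Over 250 bases before the start, 464 of 32851 RefSeq promoters (1.41%) held the motif. A match is a description of letters, and it was found in the 1 member that was higher as well as in members that were lower. No binding was measured.

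The CXC ligands that attract neutrophils through Cxcr2 were lower in 1151. Cxcl5 was at 11.8, 10.5 and 9.91 TPM in the 1151 libraries, 1005, 578 and 729.7 TPM in clone 15 and 678, 628 and 397 TPM in clone 22. The difference was -6.01 ± 0.24 (SE) against clone 15 and -5.56 ± 0.24 against clone 22 (limma, adjusted p = 2.8e-07 and 4.2e-07), with no overlap of groups. Cxcl3 was listed at 0 in 1151 and at 173, 131 and 166 TPM in clone 15 and 229, 196 and 200.2 TPM in clone 22 (limma, adjusted p = 4.7e-09 and 2.8e-09). Its level in the empty-vector pair averaged 3.11 ± 1.04 TPM (SD, n = 3). Cxcl2 was at 0.362, 0.26 and 1.88 TPM in the 1151 libraries, 12.1, 18.2 and 13.8 TPM in clone 15 and 9.45, 10.0 and 5.53 TPM in clone 22. No 1151 library reached the 2838 range, and the log2 difference was -3.19 ± 0.35 (SE) against clone 15 and -2.42 ± 0.35 against clone 22 (limma, adjusted p = 0.00017 and 0.00092). Cxcl5, Ppbp, Cxcl3 and Cxcl2, all large and lower, were consecutive among the tested genes on chromosome 5, from 90759360 to 90905938, a span of 146.579 kb. Cxcl1, whose promoter holds matches 89 and 71 bases before the start, lies in the same family but was at 0 to 0.0894 TPM in 1151 and 0.134 to 1.14 TPM in 2838, too low to be tested.

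The monocyte-attracting ligand Ccl2 was at 2.84, 2.53 and 3.39 TPM in 1151, 81.6, 44.3 and 55.3 TPM in clone 15 and 35.7, 31.5 and 33.9 TPM in clone 22, with log2 differences of -3.93 and -3.15 (limma, adjusted p = 2.3e-06 and 9.1e-06). Csf1, the macrophage growth factor, was at 4.73, 4.01 and 5.85 TPM in 1151, 40.6, 44.8 and 51.4 TPM in clone 15 and 48.5, 49.4 and 23.4 TPM in clone 22 (-3.0 and -2.76, limma, adjusted p = 6.4e-05 and 0.00011). No 1151 library reached the lowest 2838 library for either gene. In the empty-vector pair Ccl2 averaged 54.8 ± 7.55 TPM and Csf1 60.5 ± 2.11 TPM (SD, n = 3). The transmembrane chemokine Cxcl16 was lower (-3.37 and -3.83). The iron-sequestering protein Lcn2 was lower too (-4.93 and -3.28), with 0 to 0.296 TPM in 1151, 29.1 to 35.7 TPM in clone 15 and 5.56 to 14.9 TPM in clone 22. Lcn2 also differed between the clones (log2 difference of clone 22 minus clone 15 of -1.64, limma, adjusted p = 0.045). The member that was higher, Il1rn, encodes the interleukin-1 receptor antagonist. Il1rn was at 219, 195 and 247 TPM in the 1151 libraries, 4.58, 9.32 and 5.75 TPM in clone 15 and 15.2, 11.4 and 7.91 TPM in clone 22. Its difference was 4.91 ± 0.28 (SE) against clone 15 and 4.18 ± 0.28 against clone 22 (limma, adjusted p = 2.2e-06 and 6.2e-06).

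Complement and other plasma proteins held 8 large and lower members of 16 measured and none large and higher, with medians of -2.60 and -2.02. Without a minimum size, the list was called 1 higher and 13 lower against clone 15 and 3 higher and 11 lower against clone 22. The shares over all genes were 2.3% large and lower, and 20.1% and 16.8% called lower against clones 15 and 22. C3, the central complement protein, was at 0.161, 0.104 and 0.303 TPM in 1151, 41.7, 32.7 and 49.3 TPM in clone 15 and 13.6, 14.8 and 7.56 TPM in clone 22. The log2 difference was -5.13 ± 0.26 (SE) against clone 15 and -3.40 ± 0.26 against clone 22 (limma, adjusted p = 1.2e-06 and 1.6e-05). The clones differed as well, by -1.73 (limma, adjusted p = 0.021), with clone 15 above clone 22. The classical-pathway proteases C1s1 (-5.13 and -4.15) and C1ra (-3.86 and -2.86) were lower, as was C4b, a component of that pathway (-2.25 and -2.36). The alternative-pathway protease Cfb was at 16.7, 13.7 and 12.9 TPM in 1151, 178, 169 and 189 TPM in clone 15 and 96, 109 and 105 TPM in clone 22. These groups were ordered 1151, clone 22, clone 15 from lowest to highest with no overlap (-3.54 and -2.76). Among carriers of metal and haem, the iron carrier transferrin (Trf, -4.19 and -2.98), the copper protein ceruloplasmin (Cp, -3.57 and -2.87) and haptoglobin (Hp, -2.95 and -3.27) were lower. Lbp, which binds bacterial lipopolysaccharide and was picked after its values were seen, was lower as well (-5.82 and -4.99). Of the hepatocyte markers, Apob was large and lower, and in the 2838 clones it made up most of the list's summed level, which was 10.4 to 13.3 TPM in 1151, 157 to 222 TPM in clone 15 and 112 to 168 TPM in clone 22. Apob alone was at 1.98 to 2.71, 145 to 206 and 99.3 to 157 TPM. Of that list 5 of 13 genes were tested, 0 higher and 2 lower against clone 15 and 1 higher and 2 lower against clone 22, and the defining marker Alb was at most 1.39 TPM. The part of hepatocyte-like transcripts in the complement result was not tested.

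Extracellular matrix genes were lower in 1151 in the larger part. Of 20 measured, 8 were large and lower and none large and higher, with medians of -1.44 and -1.40, and 15 were called lower against clone 15 and 13 against clone 22. Beside this, 2.3% of all genes were large and lower, and 20.1% and 16.8% were called lower. Fibronectin (Fn1) was at 11.8, 12.8 and 13.1 TPM in 1151, 201, 178 and 199.9 TPM in clone 15 and 117, 118 and 54.5 TPM in clone 22. All 1151 libraries lay below all 2838 libraries, a log2 difference of -3.83 ± 0.27 (SE) against clone 15 and -2.76 ± 0.27 against clone 22 (limma, adjusted p = 8.4e-06 and 7.3e-05). Thbs1, the matricellular thrombospondin, was at 0.127, 0.078 and 0.204 TPM in 1151, 44.8, 45 and 53 TPM in clone 15 and 36.8, 34.4 and 8.77 TPM in clone 22 (-5.42 and -4.38, limma, adjusted p = 2.7e-05 and 0.00011). The groups did not overlap. The microfibrillar collagen chains Col6a1 (-2.35 and -2.38) and Col6a2 (-2.46 and -2.78) were lower. So were the fibulins Fbln1 (-3.49 and -3.83) and Fbln2 (-2.27 and -2.06), the laminin chain Lamb3 (-2.64 and -2.86) and the secreted matrix protein Ecm1 (-2.16 and -2.18). The empty-vector pair did not share all of these low levels, with means of 701 ± 31 TPM for Fbln2, 88.3 ± 5.43 TPM for Fn1, 30.2 ± 1.65 TPM for Thbs1, 94 ± 5.5 TPM for Ecm1, 28.1 ± 3.64 TPM for Lamb3 and 15.9 ± 1.35 TPM for Fbln1 (SD, n = 3). For Fbln2, Fn1 and Thbs1 these were in or above the range of the 2838 libraries, while Col6a1 (1.1 ± 0.252 TPM) and Col6a2 (0.91 ± 0.101 TPM) were low in both 1151 groups. Efemp1, a further fibulin and one of the leading genes, was at 0 to 0.0367 TPM in 1151 and 115 to 163 TPM in 2838. Of 16 measured matrix proteases and inhibitors, Plat, the tissue plasminogen activator, was the only large member, and was lower (-3.33 and -3.40). Fibroblast markers were near background, with summed levels of 0.401 to 1.21 TPM in 1151, 3.44 to 7.21 TPM in clone 15 and 0.628 to 2.01 TPM in clone 22 over 18 genes, and Col1a2, Dcn and Lum listed at 0 in all 9 libraries. In bulk RNA, fewer cells expressing a gene and less RNA per cell cannot be told apart.

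Mesenchymal genes outside the matrix held no large member. Of 16 measured, 2 were large and lower, Fn1 and Col6a1, both also on the matrix list, and none large and higher, with medians of -0.84 and -0.38. The cadherin Cdh2 was at 34.9 to 36.2 TPM in 1151 and 18.3 to 42 TPM in 2838 and did not pass (0.12 and 0.15). Without replicate 3 of clone 22 its difference from clone 22 turned to -0.24 and was called (adjusted p = 0.019, limma). The repressor Zeb1 was at 6.23, 9.25 and 10.0 TPM in 1151, 19.4, 13.7 and 17.4 TPM in clone 15 and 14.8, 18.3 and 5.13 TPM in clone 22 (-0.92 and -0.40, limma, adjusted p = 0.11 and 0.5). It was called lower against both clones without replicate 3 of clone 22, at -0.92 and -0.90 (adjusted p = 0.0035 and 0.0072, limma). Snai2, a repressor of Cdh1, was lower (-1.64 and -1.24, limma, adjusted p = 0.0011 and 0.0054) by less than 4-fold, and the call was lost on group means (-1.44, adjusted p = 0.350, limma). Of 22 measured targets of the Hippo effector YAP, 3 were large and lower and none large and higher, with medians of -0.69 and -0.51. They were Ccn1, a matricellular protein (-2.73 and -2.52), Nt5e, the ecto-nucleotidase CD73 (-4.98 and -4.84), and the forkhead factor Foxf2 (-2.19 and -2.11). Nt5e was at 2, 2.74 and 2.12 TPM in 1151, 95.4, 120.4 and 92.1 TPM in clone 15 and 116, 132 and 51.2 TPM in clone 22. A further canonical target, Ccn2, was higher, at 154, 152 and 150.4 TPM in 1151, 80.6, 81.9 and 70.7 TPM in clone 15 and 53.5, 62.3 and 37.9 TPM in clone 22 (0.96 and 1.58, limma, adjusted p = 0.0028 and 0.00016). The YAP list thus held members on both sides. In the empty-vector pair Ccn1 averaged 165 ± 9.88 TPM, above both 2838 clones, and Nt5e 2.7 ± 0.421 TPM (SD, n = 3). Of 21 measured TGF-beta and BMP genes none was large, with medians of -1.14 and -0.59 and 1 higher and 11 lower against clone 15, 1 higher and 9 lower against clone 22. Over all genes, 20.1% and 16.8% were called lower. Id1, a BMP target, was lower (-1.76 and -2.07, limma, adjusted p = 2.9e-05 and 1e-05).

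**Figure D4:**
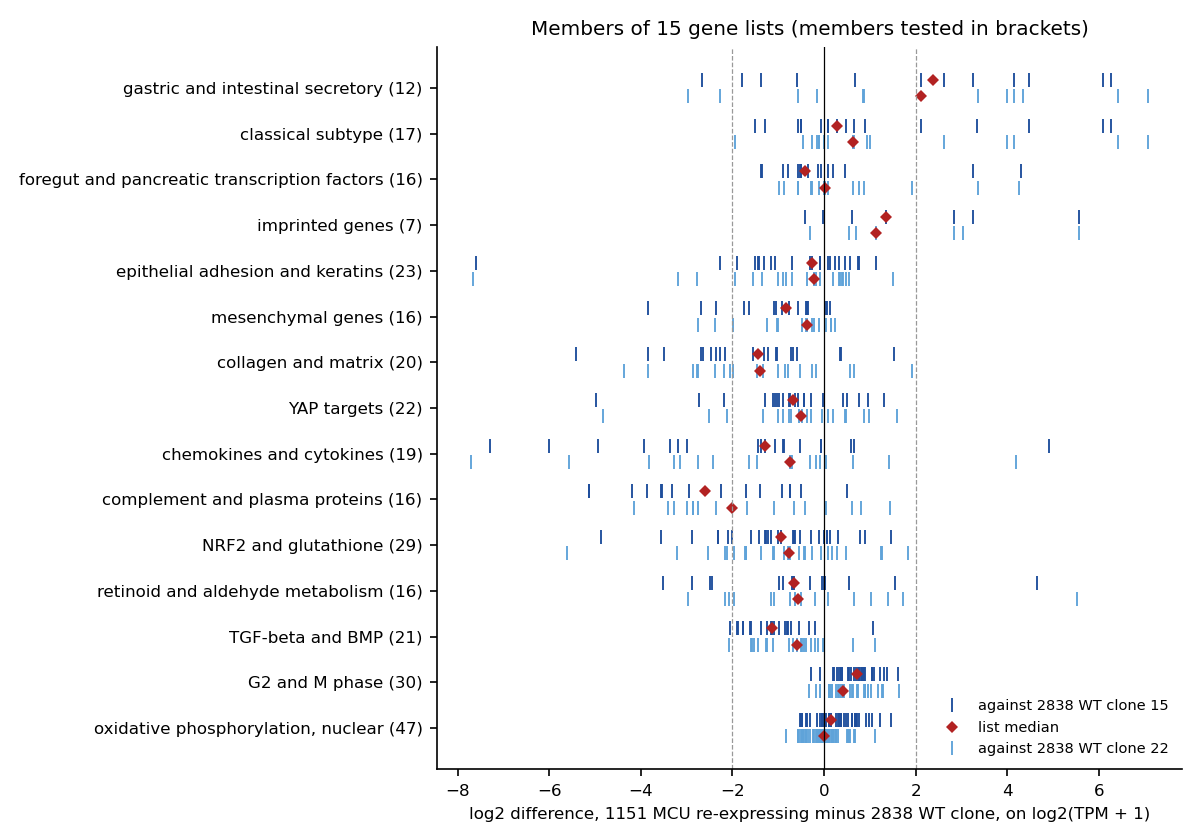
Log2 differences of the tested members of 15 gene lists on the log2(TPM + 1) scale, 1151 minus each 2838 clone, with 1 tick per gene, a diamond at the list median and dashed lines at the size called large. Of these 15 lists the gastric and intestinal secretory list has the highest medians and the complement and plasma protein list the lowest.

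Detoxifying enzymes controlled by the factor NRF2 and by glutathione metabolism held 4 large and lower members of 29 measured and none large and higher, with medians of -0.94 and -0.77. Nqo1, a quinone reductase, was at 0.129, 0.15 and 0.0496 TPM in 1151, 38, 25.7 and 31.3 TPM in clone 15 and 57.7, 55 and 46.9 TPM in clone 22. The 1151 libraries were near 0 and the groups did not overlap (-4.86 and -5.61, limma, adjusted p = 2e-07 and 8.7e-08). The glutathione transferases Gstm1 (-3.57 and -3.20), Gstm5 (-2.31 and -2.12) and Gstp1 (-2.11 and -2.16) were lower. Gstp1 and the Gstm genes have close paralogues, so their separate levels are uncertain. Slc7a11, the cystine importer, was lower (-2.02 and -1.73, limma, adjusted p = 0.011 and 0.023) and the lipid peroxide reductase Gpx4 higher (1.45 and 1.26, limma, adjusted p = 0.00085 and 0.002), so the list was mixed. An antioxidant-response-like motif, searched as TGACNNNGC on both strands, was in the 250 bases before the start of 3338 of 32851 RefSeq promoters (10.2%) and in 1 of the 4 large members, Gstm5, beginning 42 bases before its start. Gstm5, Gstm7, Csf1 and Eps8l3, all large and lower, are consecutive among the tested genes on chromosome 3, from 107741048 to 107931817. Of 16 measured genes of retinoid and aldehyde metabolism, Rbp2 was large and higher and 3 were large and lower. They were the retinol transporter Stra6 (-2.44 and -2.17), the retinal reductase Dhrs3 (-3.51 and -2.98) and the aldehyde dehydrogenase Aldh1a7 (-2.50 and -2.07).

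Smaller numbers of members differed in the signalling lists. Of 16 measured Wnt genes, the ligand Wnt7b was higher, at 19, 20.2 and 19.7 TPM in 1151 and 0.148 to 0.652 TPM in 2838 (3.77 and 4.07), and the receptor Fzd6 lower (-2.58 and -2.50). Of 18 receptor kinases and ligands, the VEGF receptor Flt1 was higher, at 15.7, 19.3 and 15.7 TPM in 1151 and 0.425 to 1.58 TPM in 2838 (2.91 and 3.24), and the growth factor Pdgfb lower (-2.15 and -2.02). Flt1 and the endothelial cadherin Cdh5, at 4.84, 4.63 and 5.31 TPM in 1151 and listed at 0 in the 6 libraries of 2838, are both endothelial markers. That list summed to 54.1 to 55.9 TPM in 1151, 16.9 to 27.8 TPM in clone 15 and 16.2 to 16.7 TPM in clone 22, with 5 of 15 genes tested, 2 of them large. Its defining members Pecam1 and Kdr were at most 0.529 and 0.859 TPM in any of the 9 libraries, and the part of endothelial-type transcripts in the Flt1 and Cdh5 results was not tested. Of 12 measured interferon-response genes, Ifit3 was large and higher (2.58 and 2.95) and Ifi27 large and lower (-3.32 and -4.0). Of 23 p53 targets and senescence genes, the pro-apoptotic Pmaip1 (-2.67 and -2.72) and the stress cytokine Gdf15 (-3.38 and -3.78) were large and lower. The hypoxia-induced carbonic anhydrase Car9 was the 1 large member of 32 glycolysis and hypoxia genes, and was higher (2.73 and 3.78). Fxyd3, a regulator of the sodium pump, was the 1 large member of 15 ion and water transport genes, and was higher (2.81 and 3.15). The empty-vector pair averaged 1.28 ± 0.886 TPM for Car9, 3.89 ± 2.98 TPM for Fxyd3, 0.00568 ± 0.00983 TPM for Cdh5 and 78.7 ± 3.45 TPM for Wnt7b (SD, n = 3). Among acinar markers only the elastase gene Cela1 was measured, lower at 0 to 0.601 TPM in 1151 against 16.4 to 28.8 TPM in 2838, with 10 of 20 acinar genes listed at 0 in all 9 libraries.

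Several lists held no large member. S phase genes had medians of 0.62 and 0.49 over 29 genes, called 14 higher and 1 lower against clone 15 and 12 higher and 1 lower against clone 22. For G2 and M phase the medians were 0.71 and 0.42 over 30 genes, with 16 higher and 0 lower and then 10 higher and 0 lower. Most called members of both lists were thus higher in 1151, by less than 4-fold. Of all genes, 12.4% were called higher and 20.1% lower against clone 15, and 13.4% and 16.8% against clone 22. The balance of directions among such small differences depended on scaling, and these list counts were not repeated under other scalings. Nuclear genes of oxidative phosphorylation had medians of 0.16 and 0.00 over 47 genes. Synthesis of cholesterol and fatty acids had -0.34 and -0.21 over 31, antigen presentation by MHC class I -0.09 and -0.12 over 16, and Notch -0.44 and -0.20 over 10. The basal-like and squamous list, with 7 measured genes, had 0.22 and 0.20. EGF ligands and receptors had 0.15 and 0.37 over 12, and S100 and annexin genes 0.13 and 0.15 over 22. In these lists, differences between the lines did not reach the large size in both contrasts. Leukocyte and endocrine markers were near background, with summed levels of at most 6.41 and 4.32 TPM, and neural and glial markers, with 5 of 13 tested, summed to 20.5 to 24.2 TPM in 1151, 29.9 to 34.2 in clone 15 and 43.5 to 59.1 in clone 22.

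The differences were not spread evenly over the chromosomes. The lowest medians were on chromosomes 3 and 8, with log2 differences of -0.63 against clone 15 and -0.47 against clone 22 on chromosome 3 (572 genes) and of -0.48 and -0.51 on chromosome 8. Chromosome 3 was lowest against clone 15 and chromosome 8 against clone 22. Chromosome 3 held 29 large and lower genes, 5.07% of its tested genes, beside 2.3% of all genes. On chromosome 7 the medians were 0.16 and 0.29 over 883 genes, with 22 large and higher (2.49%), beside 1.31% of all. The 13 mitochondrially encoded genes had medians of 0.63 and 1.11 and none was large. From the lowest to the highest autosomal median the range was 0.788 against clone 15 and 0.844 against clone 22. The SD of an autosome's median over the 3 libraries of 1151, with the mean of each clone held fixed, was at most 0.0305. For the mitochondrially encoded genes it was 0.0785. This SD leaves out the spread among the 2838 libraries. DNA copy number was not measured. Other runs of neighbouring large and lower genes were Klrc1, Gm15854 and Klra4 on chromosome 6 (129666015 to 130067271), Apol7a, Apol9a and Apol9b on chromosome 15 (77388219 to 77736382, mm10), a family of near-identical copies, and Mtmr7, Gm5345, Slc7a2, Pdgfrl and Mtus1 on chromosome 8 (40551095 to 41133726). These runs were picked for lying side by side among the tested genes, and genes not tested may lie between.

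**Figure D5:**
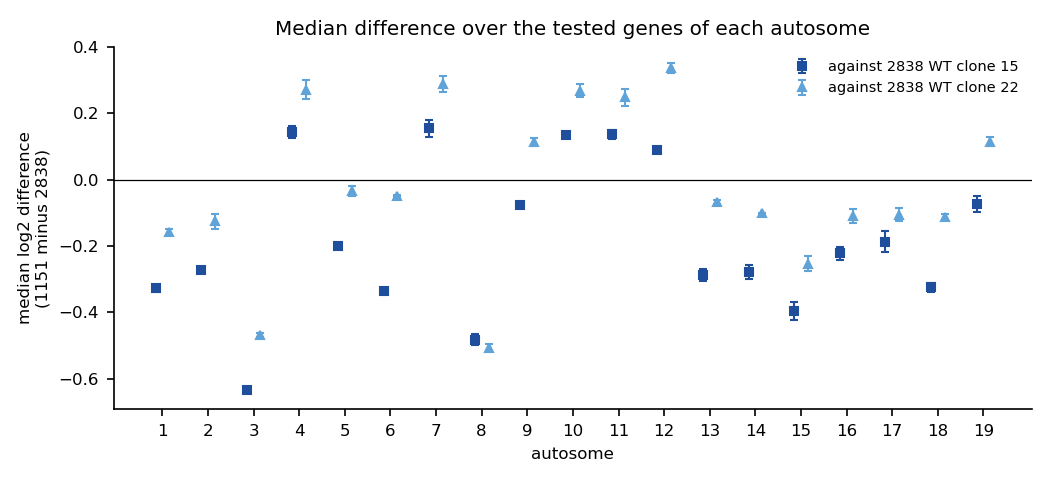
Median log2 difference of the tested genes on each autosome on the log2(TPM + 1) scale, with 1 point for 1151 minus each clone and bars for the SD of the median over the 3 libraries of 1151. The bars leave out the spread among the 2838 libraries. Chromosome 3 is lowest against clone 15 and chromosome 8 against clone 22, and chromosome 7 is highest against clone 15 and second to chromosome 12 against clone 22.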

How the data were processed

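The 9 libraries of 3 groups were taken from 18 in the series, with groups and batches from the labels. The authors deposited a table of TPM for 35642 gene symbols. The submitters' processing notes give Salmon, DESeq2 and the mm10 build. Versions and annotation are not given in the sources used here. TPM has a fixed total, so abundant genes that rise lower all others. Read depth is lost, so no counting interval was given.

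Genes with at least 1 TPM in 3 or more of the 9 libraries were kept (11854). Their log2(TPM + 1) values were fitted by group in R 4.3.3 with limma 3.58.1, whose prior variance followed mean expression, and p-values were adjusted by Benjamini-Hochberg over all of them. Fold changes on this scale understate changes of low genes. X-linked and Y-linked genes (346) and genes with no matched position (230) were tested but neither counted nor named. The reference annotation matched 98.1% of tested symbols. The fit was first tested on simulated data.

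Named genes were the 15 in each direction ranked by the smaller of the 2 differences (large in both contrasts, groups not overlapping, 10 TPM or more on average in the higher line, autosomal, no predicted or clone name), every large member of 39 gene lists, other members to show what was not large, and a set of tumour, epithelial, mesenchymal and ductal genes, some of which are not reported here. Members and lists were chosen with earlier results of these data known. Leaving out a library kept the genes tested with all 9. Alternatives covered the pseudocount, filter, scaling, weights, samples in the fit, group means, replicate block and leaving out each library. Promoter sequences are from RefSeq, GRCm38.p6.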

Additional observations from a re-analysis of the deposited data

Results flagged for a closer look

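Both contrasts were called with opposite signs for 7 genes, Cfi, Lhfp, Ly6c1, Poglut1, Prom1, Spaca7 and Spsb4, each of which also differed between the 2838 clones in the limma test. Opposite signs place 1151 between the clones by arithmetic. The difference between the clones is then the sum of the 2 differences in size, so its call is no separate result. In each of the 7 genes clone 15 was the higher and clone 22 the lower. Prom1, the membrane glycoprotein CD133, was at 22.3, 20.7 and 18.9 TPM in 1151, 44.1, 29.5 and 35.1 TPM in clone 15 and 6.48, 6.16 and 10.2 TPM in clone 22. The 3 groups did not overlap, at a log2 difference of -0.77 against clone 15 and 1.36 against clone 22, with -2.12 between the clones (adjusted p = 0.0060, limma). Ly6c1, a GPI-anchored surface protein, was at 0.903 to 1.05 TPM in 1151, 2.52 to 3.96 TPM in clone 15 and 0 to 0.303 TPM in clone 22 (-1.03 and 0.86, clones adjusted p = 0.0036, limma). Cfi, the complement factor I protease, differed by -0.75 and 0.80 (clones adjusted p = 0.020, limma), a member of the complement list that went against the 8 large members in 1 contrast. The glycosyltransferase Poglut1 differed by -0.75 and 0.84, Spaca7 by -1.03 and 0.59, Lhfp by -0.43 and 0.81 and Spsb4 by -0.58 and 0.58, with adjusted p between the clones of 0.016, 0.0048, 0.0090 and 0.021 (limma). For these genes the direction of the difference depended on the 2838 clone. The empty-vector pair of 1151 did not share all of these levels. Cfi, Prom1 and Spsb4 averaged 0.399, 1.78 and 0.518 TPM there, below the mean of clone 22. Ly6c1 and Lhfp averaged 14.8 and 1.89 TPM, above the mean of clone 15. Poglut1 and Spaca7, at 26.7 and 2.9 TPM, lay between the means of the clones.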

How the results depend on the processing

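The 87 named genes with a large difference kept their direction in all alternatives tried, with 31 calls lost, but counts of genes moved. These genes were chosen for their size in the same libraries and had little room to reverse, so the kept direction is no separate support. With a pseudocount of 0.1 there were 274 genes large and higher and 460 large and lower, and with a mean of at least 5 TPM 83 higher. With a minimum log2 difference of 1 there were 500 higher and 798 lower (48 and 101 list members), and with 3 there were 74 and 96 (11 and 18). Calls with no minimum size moved more. Against clone 15, 2134 genes were positive under median-of-ratios scaling, 2402 under quantile normalization, and 2663 positive and 4883 negative under array weights. Against clone 22, array weights gave 2681 and 5079, and all 18 libraries in one fit gave 2301 positive. Between the clones, positive and negative calls were 8 and 61 with the pseudocount of 0.1, 7 and 32 with the mean of 5 TPM, 467 and 444 under array weights and 208 and 392 with 18 libraries, and positive calls 47 under median-of-ratios and 62 under quantile normalization. Those scalings shifted the median of all genes by 0.161 and 0.155 against clone 15 and by 0.151 between the clones, and the share of positive calls against clone 15 from 38.1% to 49.3% and 49.0%. The autosomal range against clone 15 was 0.818 under quantile normalization. Leaving out 1 library gave 141 to 152 large and higher and 236 to 291 large and lower, 19 higher and 42 to 49 lower list members, 960 to 2475 positive and 1585 to 4416 negative calls against clone 15, 955 to 2051 and 1322 to 4462 against clone 22, 2 to 279 and 27 to 221 between the clones, and autosomal ranges of 0.754 to 0.806 and 0.830 to 0.873. Replicate 3 of clone 22 set the upper end of these calls. The replicate numbers do not pair the libraries (correlations of deviations from -0.138 to 0.143), and the replicate block gave 149 higher and 259 lower large genes, and 3 positive and 17 negative calls between the clones. Some small differences changed sign. Trp53 turned to 0.0058 against clone 15 under median-of-ratios scaling. Krt19 turned to 0.0074 against clone 22 under array weights and 0.0085 without replicate 3 of clone 22 (leaving out 1 library, -0.271 to 0.0085), and Krt18 and Vim to -0.0616 and -0.0468 against clone 15 under quantile normalization. Cdh2 turned to -0.224 against clone 22 under array weights and -0.236 without replicate 3 of clone 22 (leaving out 1 library, -0.236 to 0.343). The cause was not tested. Krt8 lost its call against clone 22 under median-of-ratios scaling (adjusted p = 0.086). On group means, 74 of 87 named large genes were called, and Mcu (-2.38, adjusted p = 0.346, limma) and Tff2 (3.06, adjusted p = 0.269, limma) were not, nor were Krt8 (0.65, adjusted p = 0.230, limma) and Snai2 (-1.44, adjusted p = 0.350, limma). Read depth is unknown, so what it limits cannot be given.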

Other observations

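Large differences outside the gene lists are given here for genes picked after their values were seen. In surface and secreted signalling, the adhesion molecule Vcam1 was at 15 to 17.1 TPM in 1151 and 135 to 288 TPM in 2838 (-3.93 and -3.71, limma, adjusted p = 6.3e-06 and 9e-06). The chemokine-scavenging receptor Ackr3 was at 0.293 to 0.338 and 21 to 39.3 TPM (-4.29 and -4.74), and the growth factor Fgf2 at 0.202 to 0.328 and 3.49 to 29.7 TPM (-3.93 and -3.33). Lefty1, an inhibitor of Nodal signalling, was at 0.0416 to 0.205 and 21.3 to 41.3 TPM (-4.66 and -5.03). In each of these the 1151 libraries lay below every 2838 library. Among metabolic genes, the mitochondrial carrier Ucp2 (-2.97 and -3.12), the transsulfuration enzyme Cth (-3.11 and -3.11) and the glycine cleavage enzyme Gldc (-3.05 and -3.26) were lower. Higher in 1151 were the uroplakin Upk1b, at 12.6 to 14.1 TPM against 0 to 0.0437 TPM, the prostaglandin D synthase Hpgds, at 14.2 to 17.4 against 0 to 1.21 TPM, and the fatty acid receptor Ffar4, at 31.4 to 39.1 against 2.01 to 4.97 TPM. The paralogues Prl2c2 (3.64 and 3.42) and Sprr2a3 (3.14 and 3.03) were higher beside Prl2c3 and Sprr2a2.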
